A study of Mus musculus with 12 samples.

Results

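The genes that encode the subunits of the mitochondrial respiratory chain and ATP synthase in the nuclear genome were examined for histone H3 acetylated at lysine 27 (H3K27ac), a mark of active promoters and enhancers. The cells were cultured mouse adipocyte progenitors that had been given an adipogenic treatment, described below. A gene was taken as a member when it was a nuclear protein-coding gene of build GRCm38 and its symbol began with Nduf and one of a, b, c, s or v (complex I), was Sdha, Sdhb, Sdhc or Sdhd (complex II), began with Uqcr or was Cyc1 (complex III), began with Cox and a digit from 4 to 8 (complex IV), or began with Atp5 (complex V, ATP synthase). The rule used symbols alone and no measured value. It found 97 genes among 21631 protein-coding genes on chromosomes 1 to 19 and X, of which 95 among 20911 were analysed here. They were 40 genes of complex I, 8 complex I assembly factors that share the Nduf prefix (Ndufaf), 4 of complex II, 9 of complex III, 18 of complex IV and 16 of complex V.

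The respiratory chain passes electrons from NADH and succinate to oxygen and pumps protons across the inner mitochondrial membrane, and complex V uses the proton gradient to make ATP. Most subunits are encoded in the nucleus, and a core set is encoded in mitochondrial DNA, so the genomes have to supply matching parts. In fat cells this machinery supports lipid synthesis and, in brown and beige fat, heat production.

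Subcutaneous fat of Azin2-/- and wild-type mice was the source of the cells. Azin2 encodes antizyme inhibitor 2, a regulator of polyamine metabolism, and the labels give no strain, age, sex or cell purity. Before chromatin was taken, cells of both genotypes were expanded for 1 week (glucose at 4.5 g/l, serum at 10%). They were then given an adipogenic cocktail for 2 days, made of rosiglitazone at 1 µM, dexamethasone at 1 µM, the phosphodiesterase inhibitor IBMX at 0.5 mM and insulin at 5 µg/ml, and kept on insulin for 5 more days. Each genotype had 3 H3K27ac libraries, replicates 1, 2 and 8 for Azin2-/- and replicates 1, 2 and 2b for wild-type, and the 6 input libraries were not analysed here. The labels do not say what 2b means, and it may repeat replicate 2, so that n = 3 may overstate the wild-type samples. They also do not say that replicates came from separate animals, so p-values measure only the spread between these libraries, which may be technical.

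The values are peak lists of 742335 to 1217494 peaks per library, and the read depth behind them is unknown. The lists differed in strength, with 6858 to 26146 peaks at a deposited q of 0.01 or less, so each library was represented by its 30000 strongest peaks by p. Peaks tied in p and fold were ordered by position. In Azin2-/- replicates 1 and 2, at least, such ties lay across the cut, so some peaks left out were as strong as peaks kept. Peaks at a q of 0.05 or less numbered 54847 in Azin2-/- replicate 1 and 13843 to 21544 in the other libraries. In those others the 30000 thus take in peaks above a q of 0.05. An end peak is one of the 30000 that overlaps the stretch within 1 kb of either end of a gene. End cover is the number of bases of that stretch covered by these peaks, scaled to equal total cover per library. The deleted gene had an end peak in all 6 libraries, with scaled end cover of 664 to 945 bp in Azin2-/- and 1219 to 1682 bp in wild-type libraries, and the sources used here do not say which part of Azin2 is missing. The labelled cell type was checked against marker genes. Over all genes, 18.6% had an end peak in every library and 35.9% had none. Of 7 progenitor markers analysed, 1 had an end peak in every library and Pdgfra and Dpp4 had none, while of 9 adipocyte markers Plin1 and Cebpa had one in every library and Adipoq, Cidec and Cd36 had none. Of 6 brown adipocyte markers, Ppargc1a had an end peak in every library, Prdm16 and Elovl3 in 5 libraries and Cidea in 1, while Ucp1 and Dio2 had none. Of 5 endothelial markers 3 had none, and of 5 leukocyte markers 4 had none. The share with none was 28.6% in the progenitor list and 33.3% in the adipocyte list, near that of all genes. These counts therefore do not settle the cell type. Of 6 muscle markers, Myod1 and Ckm had end peaks in every Azin2-/- and no wild-type library, a pattern of 0.88% of all genes, Mylpf in 1 Azin2-/- and all 3 wild-type libraries, and Myf5, Myog and Acta1 in none. Of 3 neural markers, Sox10 had end peaks in 2 Azin2-/- libraries and 1 wild-type library, Tubb3 in 2 Azin2-/- libraries, and Snap25 in none. The summed scaled end cover of the muscle list was 994 to 1456 bp in Azin2-/- and 507 to 1287 bp in wild-type libraries, and that of the neural list 904 to 1418 bp and 0 to 622 bp. The genotypes did not overlap in the neural list, a sum over 3 genes, and overlapped in every other marker list. Whether muscle or neural cells were present, and their part in any value below, was not tested.

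The promoters of 7 members are shown to set the peaks against the DNA at the starts of the genes. They belong to the best-ranked members of complexes I, III, IV and V among those with an end peak in all 6 libraries and a known start (complex II has no such member), and to Cox8b, a muscle and brown fat subunit with no end peak, which was added after its values were seen. Each is the stretch of 250 bases before an annotated start, from RefSeq for build GRCm38.p6, read 5′ to 3′ on the strand of the gene. Capitals mark matches on either strand to GCATGCGC (the word bound by NRF1), CCGGAAG (ETS factors such as GABPA), AAGATGGC (YY1), GGGCGG (SP1), TATAAA (the TATA box) or TCAAGGTCA (ERR alpha). Ndufv2 lies at chr17:66101560-66101809 on the minus strand, Ndufa11 at chr17:56717512-56717761 on the plus strand, Uqcrh at chr4:116075071-116075320 on the minus strand and Uqcrfs1 at chr13:30545317-30545566 on the minus strand. Cox6a1 lies at chr5:115348959-115349208, Cox8b at chr7:140900447-140900696 and Atp5j at chr16:84835626-84835875, all on the minus strand. Atp5j has 2 annotated promoters. The stretch shown ends at an inner start, so 232 of its 250 bases lie inside the gene as annotated, while the summit distances below count from the outer end.
Ndufv2: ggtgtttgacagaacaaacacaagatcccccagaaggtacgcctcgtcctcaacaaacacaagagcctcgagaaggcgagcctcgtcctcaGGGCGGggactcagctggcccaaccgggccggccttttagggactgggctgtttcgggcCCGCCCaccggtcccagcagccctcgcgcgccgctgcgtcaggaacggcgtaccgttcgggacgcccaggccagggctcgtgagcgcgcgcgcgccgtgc
Ndufa11: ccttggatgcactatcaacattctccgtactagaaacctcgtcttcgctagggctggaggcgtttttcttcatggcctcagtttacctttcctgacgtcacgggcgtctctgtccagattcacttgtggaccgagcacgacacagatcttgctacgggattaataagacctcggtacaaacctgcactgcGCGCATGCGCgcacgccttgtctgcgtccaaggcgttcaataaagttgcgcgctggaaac
Uqcrh: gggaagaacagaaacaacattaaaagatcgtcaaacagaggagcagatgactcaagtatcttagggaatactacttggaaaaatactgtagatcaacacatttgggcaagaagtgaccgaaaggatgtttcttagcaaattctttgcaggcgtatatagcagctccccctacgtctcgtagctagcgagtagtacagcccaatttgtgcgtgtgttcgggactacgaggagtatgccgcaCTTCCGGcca
Uqcrfs1: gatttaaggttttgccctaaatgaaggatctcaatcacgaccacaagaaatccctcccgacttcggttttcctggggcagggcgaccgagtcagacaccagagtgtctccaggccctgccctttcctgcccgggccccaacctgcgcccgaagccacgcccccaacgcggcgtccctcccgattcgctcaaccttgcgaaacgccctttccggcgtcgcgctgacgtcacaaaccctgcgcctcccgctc
Cox6a1: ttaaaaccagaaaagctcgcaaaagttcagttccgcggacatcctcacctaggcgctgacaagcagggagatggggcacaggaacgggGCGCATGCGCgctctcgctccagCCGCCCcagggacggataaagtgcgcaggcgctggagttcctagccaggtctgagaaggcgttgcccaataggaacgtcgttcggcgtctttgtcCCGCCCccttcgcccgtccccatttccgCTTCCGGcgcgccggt
Cox8b: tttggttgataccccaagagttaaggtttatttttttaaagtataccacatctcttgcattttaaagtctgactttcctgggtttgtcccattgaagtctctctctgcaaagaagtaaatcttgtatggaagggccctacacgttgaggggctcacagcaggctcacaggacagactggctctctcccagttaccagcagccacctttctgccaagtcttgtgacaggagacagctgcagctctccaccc
Atp5j: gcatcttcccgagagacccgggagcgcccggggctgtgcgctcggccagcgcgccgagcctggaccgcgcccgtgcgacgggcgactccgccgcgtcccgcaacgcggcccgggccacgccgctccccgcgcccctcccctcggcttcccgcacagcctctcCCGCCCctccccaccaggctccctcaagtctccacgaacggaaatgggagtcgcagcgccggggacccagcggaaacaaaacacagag

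In these stretches the Cox6a1 and Ndufa11 promoters each hold 2 overlapping matches to the NRF1 word, 1 on each strand, because the word is nearly its own reverse complement. Cox6a1 also holds the ETS word and the SP1 word, and Uqcrh holds the ETS word close to its start. The Uqcrfs1 stretch and the Cox8b stretch hold none of the 6 words. CpG dinucleotides numbered 35 in Atp5j, 28 in Ndufv2, 26 in Cox6a1, 23 in Uqcrfs1, 20 in Ndufa11 and 11 in Uqcrh, against 1 in Cox8b. Peaks among the 30000 strongest overlapped the stretch in 6 libraries at Ndufv2, Uqcrfs1 and Atp5j, in 5 at Uqcrh (not in wild-type replicate 2) and Cox6a1 (not in Azin2-/- replicate 2), in 1 at Ndufa11 (Azin2-/- replicate 1) and in 0 at Cox8b.

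Promoters were found for 76 of the 95 members and for 16660 genes in all, counting 300 bases each (250 before and 50 after the start). The NRF1 word was in the promoters of 11 members (14.5%) against 4.05% of all genes, the ETS word in 19 of the 76 against 13.3%, and the YY1 word in 11 (14.5%) against 3.68%. The SP1 word was in 34 (44.7%) against 50.8%, TATAAA in 8 (10.5%) against 14.7%, and the ERR alpha word in 2, Sdhd and Atp5g3 (2.63%), against 0.336%. NRF1, GABPA, YY1 and ERR alpha are transcription factors known for driving genes of mitochondrial respiration. The words were not confined to members with peaks, since the NRF1 word was in 2 of 10 members with an end peak in all 6 libraries, in 6 of 49 with peaks in 1 to 5 libraries and in 3 of 17 with none. Members with the word but no end peak were Ndufa8, Ndufaf5 and Atp5k. A match is a run of letters in a window and says nothing of a bound factor.

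The base composition of member promoters differed with the presence of peaks. The median GC content was 62.3% in the 10 members with an end peak in all 6 libraries, 59.7% in the 49 with peaks in 1 to 5, and 55.7% in the 17 with none. The median ratio of observed to expected CpG was 1.02, 0.833 and 0.745 in the same order. Over all genes the same ratio was 0.859 with an end peak in all 6 libraries and 0.256 with none, so members without peaks still had CpG-rich promoters. These are descriptions of the promoters, with no test.

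H3K27ac was found at the ends of most members in at least 1 library and at few of them in every library. An end peak was present in all 6 libraries at 14 of 95 members (14.7%), against 18.6% of all genes, in 5 libraries at 9, in 2 to 4 at 26, in 1 at 25 and in none at 21 (22.1%), against 35.9% of all genes. Both shares lay below those of all genes, and these differences were not tested. Ribosomal protein genes, set beside them as other large families for shared complexes, had 18 of 86 (20.9%, cytosolic ribosomal proteins) and 12 of 78 (15.4%, mitochondrial ribosomal proteins) in all 6 libraries.

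The share of members with an end peak varied widely between libraries of the same genotype, and the genotypes overlapped. It was 58.9%, 36.8% and 34.7% in Azin2-/- replicates 1, 2 and 8, and 32.6%, 26.3% and 44.2% in wild-type replicates 1, 2 and 2b. Over all genes the shares were 52.8%, 39.4%, 37.5%, 31.1%, 36.5% and 42.1% in the same order. Members lay above all genes in Azin2-/- replicate 1 and in wild-type replicates 1 and 2b, and below in the other 3 libraries, with the widest gap in wild-type replicate 2. Of the 25 members with a peak in 1 library, 10 (40.0%) had it in Azin2-/- replicate 1, the library with the most strong peaks, near the 37.2% of all such genes.

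**Figure D1:**
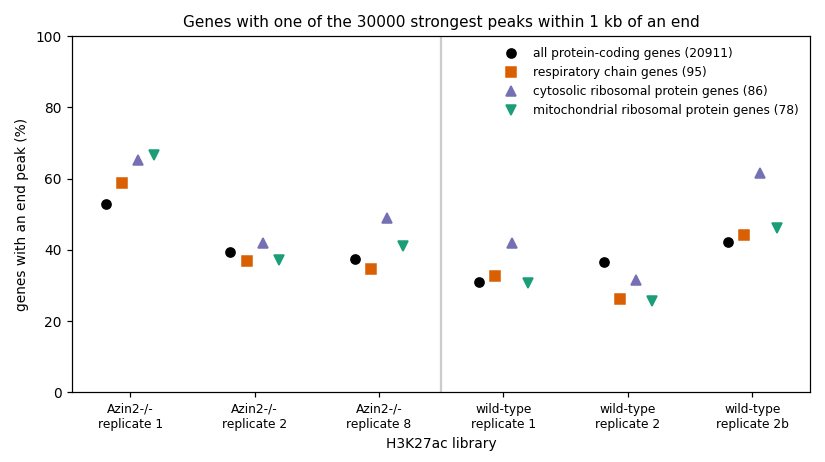
Percentage of genes with an end peak (y axis, %) in each of the 6 H3K27ac libraries (x axis) for all protein-coding genes, the 95 respiratory chain genes, 86 cytosolic and 78 mitochondrial ribosomal protein genes, 1 point per gene set and library. The respiratory chain genes lie between 26.3% (wild-type replicate 2) and 58.9% (Azin2-/- replicate 1), and the genotypes overlap.

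Peaks at members had a weaker median rank than those at all genes in 5 of the 6 libraries. The median rank of the strongest end peak, where 1 is the strongest peak of the library, was 10476, 9039 and 5280 at members in Azin2-/- replicates 1, 2 and 8, against 6722, 5111 and 4390 at all genes with an end peak. In wild-type replicates 1 and 2 it was 6219 and 7155 against 4790 and 4315, and in wild-type replicate 2b the order was turned, with 4023 against 4594. Ranks are positions within a library and show no change between libraries.

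Summits of member peaks lay mostly just inside the gene. Among 172 strongest end peaks at members whose start is known, 147 (85.5%) had their summit within 1 kb of the start, 108 of these downstream and 39 upstream, with a median 158 bp downstream. The share within 1 kb was lowest in wild-type replicate 2 (73.7%) and highest in Azin2-/- replicate 8 (91.7%). The median distance lay between 142 and 188 bp downstream in each library. That position is where the acetylated nucleosomes next to a start site are usually found.

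**Figure D2:**
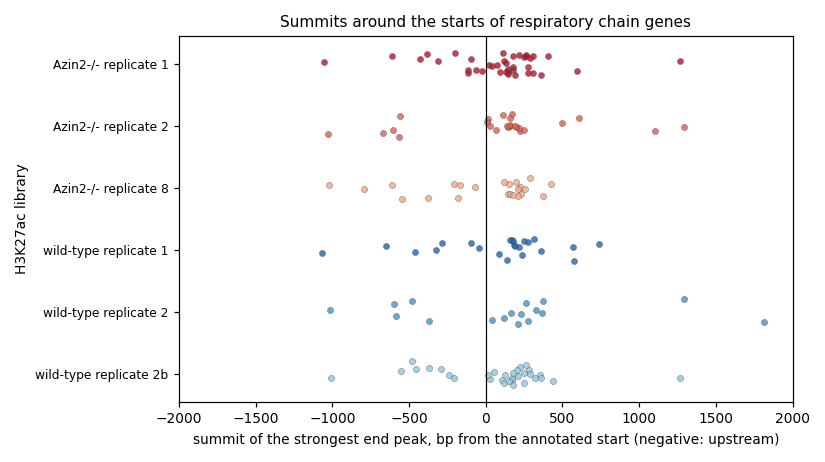
Distance in bp of the summit of each member's strongest end peak from the annotated start (x axis, negative is upstream, peaks beyond 2000 bp not drawn) by library (y axis, points jittered). Most points lie just downstream of the start, and the median of the 147 peaks within 1 kb was 158 bp downstream.

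Many members have another gene close to one of their ends. The start or end of another protein-coding gene lay within 1 kb of either end at 55 of 95 members (57.9%), against 25.5% of all genes. It was so at 9 of the 14 members with an end peak in all 6 libraries (64.3%) and at 9 of the 21 with none (42.9%), against 35.1% and 13.4% of all genes in the same classes. At such sites the peak cannot be given to one gene, and neighbours are named with the members below.

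Complex I, which oxidises NADH, had 40 subunit genes, of which 4 had an end peak in all 6 libraries, 4 in 5, 9 in 2 to 4, 14 in 1 and 9 in none. The 4 were Ndufv2, Ndufa11, Ndufa13 and Ndufb4. Ndufv2 (chromosome 17, 66078795 to 66101559, minus strand) encodes an iron-sulfur subunit of the NADH-binding arm, and its peak ranked 310 at best and 13127 at worst. Its scaled end cover was 1010, 945 and 1393 bp in Azin2-/- replicates 1, 2 and 8 and 1560, 949 and 935 bp in wild-type replicates 1, 2 and 2b. The highest and the lowest library were both wild-type, and the genotypes overlapped (log2 difference of Azin2-/- from wild-type -0.02, SE 0.29, limma adjusted p = 0.997). In Azin2-/- replicate 1 the strongest end peak, of rank 1585, was not the one at the start. Its summit lay 24228 bp from the start of this 22765 bp gene, beyond the far end, where Ankrd12 ends within 1 kb. It touched only the edge of the window, so most of the 1010 bp of scaled cover there came from other peaks. The promoter stretch printed above was overlapped by a peak in that library too, as in all 6. The rank of the peak at the start in that library is not given.

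Ndufa11 (chromosome 17, 56717762 to 56724248, plus strand) encodes an accessory subunit of the membrane arm. Its scaled end cover was 836, 261 and 586 bp in Azin2-/- and 552, 146 and 110 bp in wild-type libraries. The genotypes overlapped (log2 0.74, SE 0.82, adjusted p = 0.810). In all 6 libraries the summit lay 1009 to 1066 bp upstream of the start, within Vmac, so its end cover was the edge of a peak centred outside the window. In Azin2-/- replicate 1 alone a further peak, of rank 7349, lay at the start itself. Ndufa13, an accessory subunit, had the most cover of the complex, with 1257 to 2387 bp over the 6 libraries, and Tssk6 and Yjefn3 have ends within 1 kb. Ndufb4, an accessory subunit of the distal membrane arm, had summits 222 to 262 bp downstream of its start in all 6 libraries and no other gene end within 1 kb.

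In 5 libraries the complex I genes were Ndufa10, Ndufa4, Ndufab1 and Ndufb2. Ndufab1 encodes the mitochondrial acyl carrier protein, which also serves fatty acid synthesis. The genes with no end peak were Ndufa1, Ndufa5, Ndufa8, Ndufb4b, Ndufb4c, Ndufb8, Ndufs5, Ndufs7 and Ndufv1, and they include core subunits that every complex needs, such as Ndufv1 and Ndufs7. Absence here means absence from the 30000 strongest peaks. Deposited peaks of lower rank lay at these genes in some libraries, and do not by themselves show that the mark is present. Several of the genes had no deposited peak at all in some libraries, such as Ndufv1 in wild-type replicates 1 and 2. Among the 8 assembly factors that the symbol rule takes in, Ndufaf6, a factor for building the membrane arm (chromosome 4, 11048991 to 11076237), had an end peak in all 6 libraries, 4 others had one in 1 library, and Ndufaf1 and Ndufaf5 had none. The scaled end cover at Ndufaf6 was 674, 730 and 1420 bp in Azin2-/- replicates 1, 2 and 8 and 742, 591 and 588 bp in wild-type libraries, and its rank was 2 in Azin2-/- replicate 8 and 21764 in wild-type replicate 1. The genotypes overlapped (log2 0.39, SE 0.44, adjusted p = 0.813).

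**Figure D3:**
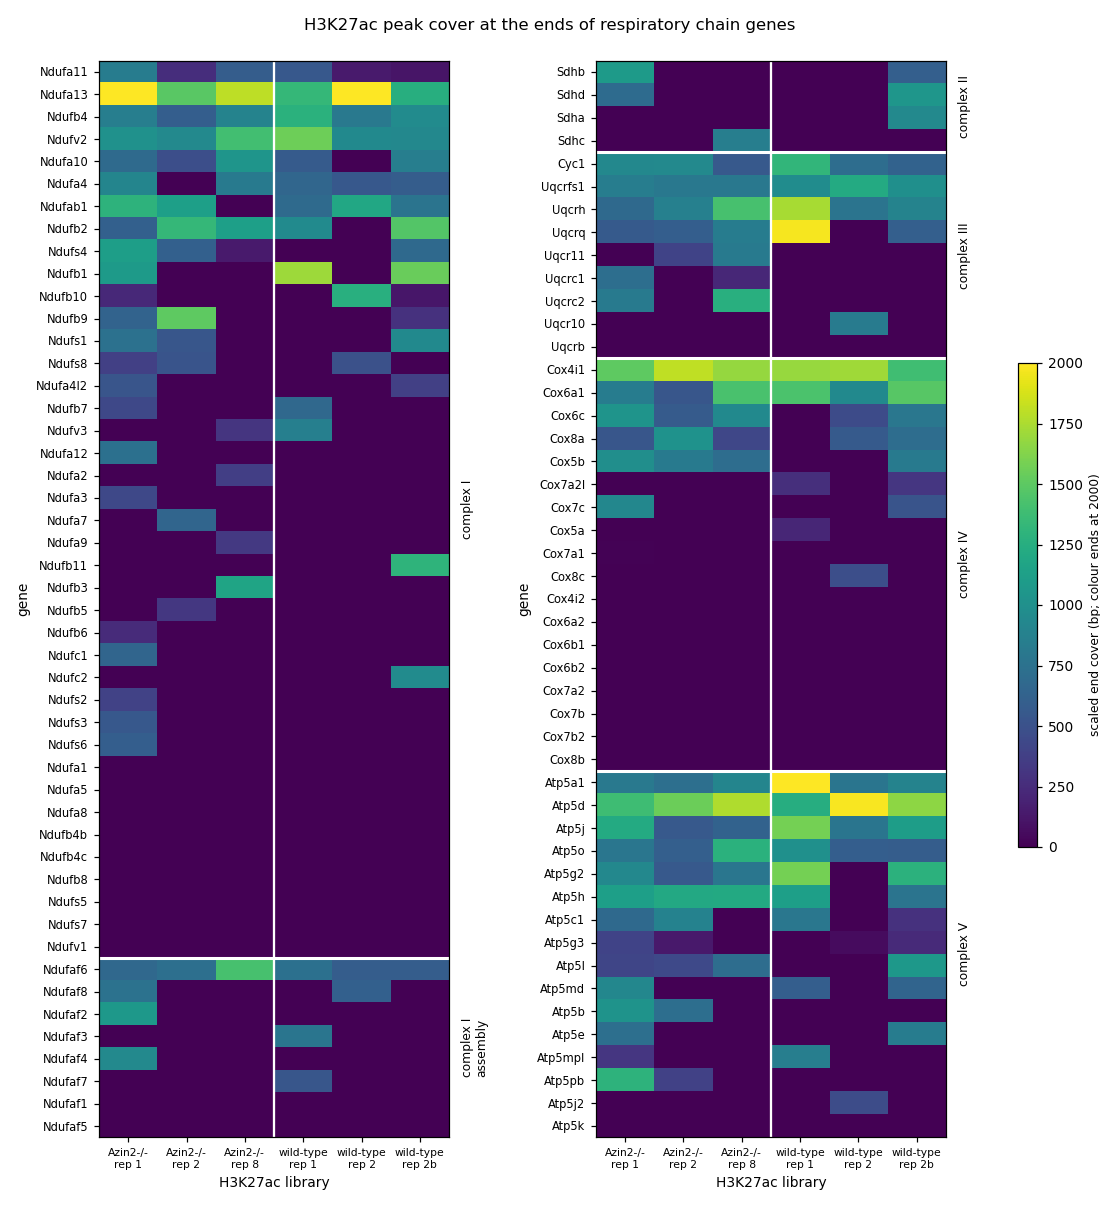
Scaled end cover (colour, bp, ending at 2000) of each of the 95 members (rows, by complex) in each library (columns, Azin2-/- left and wild-type right of the white line). The 14 members with cover in all 6 libraries sit at the top of their complexes, and no member has cover in all 3 libraries of one genotype and none of the other.

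Complex II, succinate dehydrogenase, is the one complex encoded wholly in the nucleus and also works in the citric acid cycle. None of its 4 genes had an end peak in more than 2 libraries. Sdha, the flavoprotein, had scaled end cover of 939 bp in wild-type replicate 2b (rank 15243) and 0 bp in the other 5 libraries. Sdhb, the iron-sulfur subunit, had 1093 bp in Azin2-/- replicate 1 and 608 bp in wild-type replicate 2b. Sdhc and Sdhd anchor the enzyme in the membrane and bind ubiquinone. Sdhc had 852 bp in Azin2-/- replicate 8, and Sdhd had 696 bp in Azin2-/- replicate 1 and 1052 bp in wild-type replicate 2b. Wild-type replicate 2b held peaks at 3 of the 4 genes, whereas wild-type replicates 1 and 2 and Azin2-/- replicate 2 held 0. The log2 difference was 0.23 (SE 0.99, adjusted p = 0.984) at Sdhb and -0.16 (SE 1.01, adjusted p = 0.991) at Sdhd, and Sdha and Sdhc were under the minimum cover for the test.

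Complex III, the cytochrome bc1 complex, had 9 genes, with end peaks in all 6 libraries at Uqcrh, Uqcrfs1 and Cyc1, in 5 at Uqcrq, in 2 to 4 at 3, in 1 at 1 and in none at Uqcrb. Uqcrh (chromosome 4, 116066965 to 116075070, minus strand), the hinge protein that binds cytochrome c1, had the strongest peaks of all members, with a median rank of 343. Its scaled end cover was 680, 874 and 1415 bp in Azin2-/- and 1740, 768 and 897 bp in wild-type libraries. Its genotypes overlapped (log2 -0.14, SE 0.38, adjusted p = 0.946). The summit lay 482 to 648 bp upstream of its start in all 6 libraries, within Lrrc41, and outside the stretch printed above.

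Uqcrfs1 (chromosome 13, 30540312 to 30545316, minus strand) encodes the Rieske iron-sulfur protein, which takes electrons from ubiquinol. Its scaled end cover was 845, 798 and 801 bp in Azin2-/- replicates 1, 2 and 8 and 974, 1222 and 998 bp in wild-type replicates 1, 2 and 2b. Each Azin2-/- library lay below each wild-type library, with means of 815 ± 26.2 bp (SD, n = 3) and 1065 ± 137 bp (SD, n = 3), and Uqcrfs1 was the one member with this order. The difference did not pass the limma test (log2 -0.31, SE 0.31, adjusted p = 0.785). Genotypes failed to overlap in this direction at 4.43% of the 9707 genes tested. Summits lay 89 to 232 bp downstream of the start, and no other gene end lay within 1 kb.

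Cyc1, cytochrome c1, had scaled end cover of 559 to 942 bp in Azin2-/- and 627 to 1320 bp in wild-type libraries beside Sharpin. Uqcrc2, a core protein of the complex, had the highest log2 difference of all members tested and was chosen after its values were seen. It had scaled end cover of 814 bp in Azin2-/- replicate 1, 1265 bp in Azin2-/- replicate 8 and 0 bp in the other 4 libraries. The test did not call it (log2 1.74, SE 0.90, unadjusted p = 0.0853, adjusted p = 0.686). Azin2-/- replicate 2 was like the wild-type libraries there, and Pdzd9 has an end within 1 kb.

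Complex IV, cytochrome c oxidase, had the largest share of genes with no end peak, 8 of 18, against 2 in all 6 libraries, 2 in 5, 3 in 2 to 4 and 3 in 1. Several of its subunits exist as paralogs used in different tissues. For subunits IV, VIa and VIII the widely used form had peaks in 5 or 6 libraries and the tissue-restricted forms in at most 1, while for subunits VIb, VIIa and VIIb the widely used form had none, and no test was made of this. Cox4i1 (chromosome 8, 120668225 to 120674209), the widely used form of subunit IV, had scaled end cover of 1502, 1809 and 1687 bp in Azin2-/- and 1688, 1714 and 1390 bp in wild-type libraries. The 6 libraries lay within a narrow range and the genotypes overlapped (log2 0.06, SE 0.17, adjusted p = 0.963). Emc8 and Gm27021 have ends within 1 kb. Cox4i2, the form known from lung and low oxygen, had no end peak in any library, and its best rank was 34424 in Azin2-/- replicate 1. There its deposited p and fold equalled those of peaks that were kept, such as that of rank 29275 at Ndufa4l2.

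Cox6a1 (chromosome 5, 115345652 to 115348958, minus strand), the form of subunit VIa found in most tissues, had scaled end cover of 837, 532 and 1427 bp in Azin2-/- and 1433, 951 and 1480 bp in wild-type libraries. The genotypes overlapped (log2 -0.45, SE 0.36, adjusted p = 0.759). Its summits lay 103 to 177 bp downstream of the start in all 6 libraries, next to the promoter with the NRF1 and ETS words printed above. Cox6a2, the heart and muscle form, had no end peak, and its strongest deposited peak ranked 110329.

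Cox8a, the widely used form of subunit VIII, had scaled end cover of 533, 1023 and 428 bp in Azin2-/- and 0, 565 and 716 bp in wild-type libraries. The genotypes overlapped (log2 0.67, SE 0.83, adjusted p = 0.829). Cox8b, the form used in muscle and brown fat, had none among the 30000 used, with a best rank of 31075 in Azin2-/- replicate 2. That peak had the same deposited p and fold as peaks kept in that library, such as that of rank 20785 at Cox5b. It was left out by the order of positions alone, so it was not weaker than they were. Cox8c, a testis form, had 480 bp in wild-type replicate 2 and 0 bp elsewhere.

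Cox7a2, the widely used form of subunit VIIa, had no end peak, and Cox7a1, the heart and muscle form, had 10.5 bp in Azin2-/- replicate 1, the edge of 1 peak. Cox7a2l, known as a factor that joins complexes III and IV into supercomplexes, had 269 bp in wild-type replicate 1 and 319 bp in wild-type replicate 2b. Cox7b and Cox7b2 had no end peak, and neither had Cox6b1, the widely used form of subunit VIb, nor Cox6b2, a testis form.

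Ndufa4, named for complex I and since assigned to complex IV, had scaled end cover of 908, 0 and 821 bp in Azin2-/- and 659, 547 and 592 bp in wild-type libraries. The genotypes overlapped (log2 -0.39, SE 0.82, adjusted p = 0.918). Its paralog Ndufa4l2, known as a target of hypoxia signalling, had 527 bp in Azin2-/- replicate 1 and 382 bp in wild-type replicate 2b.

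**Figure D4:**
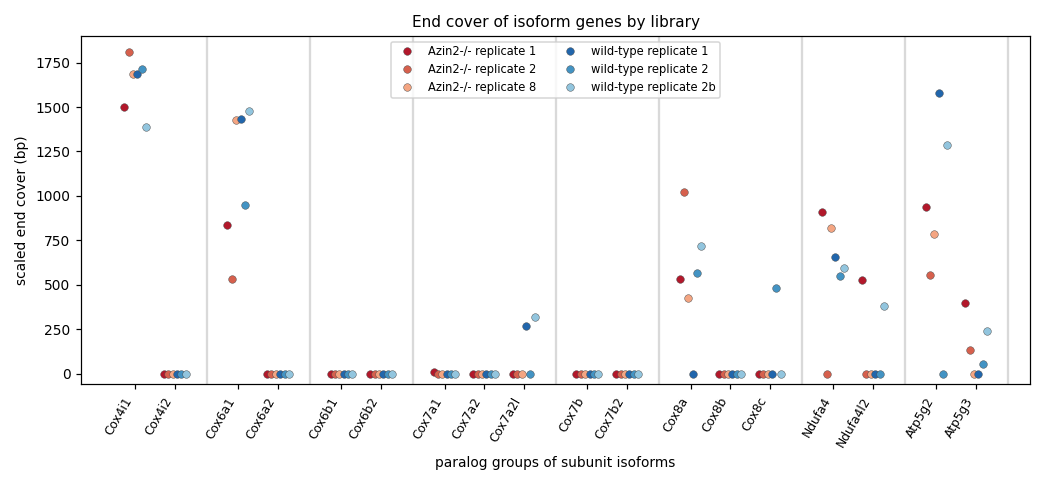
Scaled end cover (bp) of the paralogous subunit genes by library, 1 point per library, with Azin2-/- in reds and wild-type in blues. Cox4i1 and Cox6a1 have cover in all 6 libraries and their tissue-restricted paralogs Cox4i2 and Cox6a2 have 0, while Cox7a2, Cox7b and Cox6b1 are also at 0.

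Complex V, which makes ATP, had 16 genes, of which 4 had an end peak in all 6 libraries, 2 in 5, 8 in 2 to 4, 1 in 1 and 1, Atp5k, in none. Atp5a1 (chromosome 18, 77773768 to 77782869) encodes the alpha subunit of the catalytic head. Its scaled end cover was 808, 727 and 913 bp in Azin2-/- and 2251, 777 and 897 bp in wild-type libraries. The difference between the means of 816 ± 93.2 bp (SD, n = 3) and 1308 ± 818 bp (SD, n = 3) rested on wild-type replicate 1, and the genotypes overlapped (log2 -0.45, SE 0.40, adjusted p = 0.760). Haus1 has an end within 1 kb.

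Atp5j (chromosome 16, 84827871 to 84835857, minus strand) encodes coupling factor 6 of the stalk. Gabpa has an end within 1 kb of its start and encodes the DNA-binding subunit of a regulator of respiratory chain genes, so cover there cannot be given to either gene. The scaled end cover was 1219, 560 and 633 bp in Azin2-/- and 1584, 780 and 1111 bp in wild-type libraries. The genotypes overlapped (log2 -0.45, SE 0.39, adjusted p = 0.760). Its rank was 183 in wild-type replicate 2b and 11766 in Azin2-/- replicate 8, and summits lay 358 to 497 bp downstream of the start.

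Atp5h (chromosome 11, 115415691 to 115419919, minus strand) encodes subunit d of the stalk. Its scaled end cover was 1130, 1208 and 1212 bp in Azin2-/- replicates 1, 2 and 8 and 1129, 0 and 772 bp in wild-type replicates 1, 2 and 2b. The lowest Azin2-/- library exceeded the highest wild-type library by less than 1 bp, and Atp5h was the one member whose genotypes did not overlap upwards, an order found at 6.74% of the 9707 genes tested. The means were 1183 ± 46.1 bp (SD, n = 3) and 634 ± 577 bp (SD, n = 3), and the difference did not pass the test (log2 1.12, SE 0.69, adjusted p = 0.689). Wild-type replicate 2 had a weaker deposited peak there, of rank 68521, and without this library the log2 difference was 0.28. With wild-type replicates 2 and 2b averaged it was 0.65. Kctd2 has an end within 1 kb.

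Of the genes for the rotating c ring, Atp5g2 had scaled end cover of 935, 555 and 786 bp in Azin2-/- and 1579, 0 and 1285 bp in wild-type libraries (log2 0.23, SE 0.82, adjusted p = 0.973). Atp5g3 had 400, 135 and 0 bp in Azin2-/- and 0, 56.2 and 242 bp in wild-type libraries. At Atp5g3 the summits of the 4 libraries with cover lay 1263 to 1295 bp inside the outer end of the gene, so the cover was the edge of a peak centred outside the window. Whether that peak lies at an inner start was not tested. The other genes in all 6 libraries were Atp5d, the delta subunit beside Midn, and Atp5o, the subunit that holds the head to the stator, with 590 to 1281 bp and no other gene end within 1 kb.

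The question put to the genotypes was whether loss of Azin2 went with a change of H3K27ac at these genes. Cover was compared by limma on log2(scaled cover + 200 bp) over the 9707 genes with a mean cover of at least 200 bp, 46.4% of all genes, which 43 of the 95 members reached. Passing required cover in some library, so the 43 do not speak for all members. No member passed an adjusted p of 0.05, where 0% of all genes tested did, and the adjusted p of members ran from 0.686 to 0.998. Unadjusted p-values under 0.05 were reached by 0 members, against 3.53% of genes tested for higher and 1.41% for lower values in Azin2-/-. In bulk cells, fewer cells that carry the mark and less mark per cell cannot be told apart.

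Of the 43 members tested, 26 had higher and 17 lower fitted cover in Azin2-/-, and among all genes tested 5476 of 9707 were higher. The median log2 difference was 0.23 in members and 0.10 in all genes tested. By complex the median was 0.25 over 15 genes of complex I, 0.03 over 2 of complex II, 0.11 over 6 of complex III, 0.44 over 6 of complex IV and 0.22 over 12 of complex V. The 14 members with peaks in all 6 libraries spread from -0.45 to 0.74 with a median SE of 0.37, and the 29 others from -1.23 at Ndufb1, an accessory subunit beside Cpsf2, to 1.74 at Uqcrc2 with a median SE of 0.89. The largest differences were thus at genes that lacked a peak in some libraries, and their errors were large too.

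**Figure D5:**
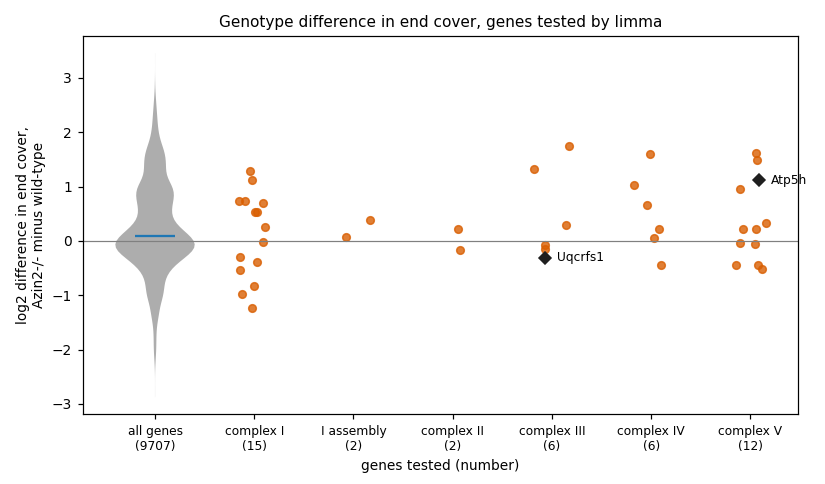
Log2 difference of scaled end cover, Azin2-/- minus wild-type (y axis), of the 43 members tested, by complex (x axis, 1 point per gene, no error drawn), beside the distribution of all 9707 genes tested (grey, its median a blue line); black diamonds mark the members whose genotypes do not overlap. Points lie on both sides of 0 in complexes I to V, from -1.23 to 1.74, and none passed an adjusted p of 0.05.

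By presence alone, 0 members had an end peak in every Azin2-/- and no wild-type library, against 0.88% of all genes, and 0 had one in every wild-type and no Azin2-/- library, against 0.0622%. With 95 members, both counts are small at the background rate as well. The counts of 0 are therefore not read as a result about the members.

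Genes that build, drive or feed the chain were given from lists apart from the members. Assembly factors of the complexes had an end peak in all 6 libraries at 9 of 37 genes and in none at 10. In limma 0 of 20 tested passed an adjusted p of 0.05 and 0 an unadjusted one. The smallest p-values there were at Bcs1l, which inserts the Rieske protein into complex III (log2 1.85, SE 0.88, adjusted p = 0.686), and at Cox14, a complex IV factor (log2 -0.58, SE 0.30, adjusted p = 0.686). Regulators of mitochondrial biogenesis had an end peak in all 6 libraries at 8 of 15 genes, namely Nrf1, Gabpa, Yy1, Ppargc1a, Ppargc1b, Pprc1, Tfb2m and Nfe2l2. Of 12 tested 0 passed an adjusted p of 0.05 and 1 an unadjusted one. Polrmt, the mitochondrial RNA polymerase, had the smallest p of the list (log2 1.83, SE 0.62, unadjusted p = 0.0153, adjusted p = 0.686), and Nrf1 the smallest among the lower ones (log2 -0.38, SE 0.32, adjusted p = 0.760). Enzymes of the citric acid cycle and electron carriers had an end peak in all 6 libraries at 4 of 17 genes, and 0 of 13 tested passed, adjusted or not, with Cycs, cytochrome c, at log2 1.51 (SE 0.82, adjusted p = 0.686) and Suclg2, a succinyl-CoA ligase subunit, at log2 -0.35 (SE 0.40, adjusted p = 0.817). The share with an end peak in every library was 53.3% for these regulators and 14.7% for the respiratory chain genes, and the difference was not tested.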

How the data were processed

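H3K27ac ChIP-seq peak lists were analysed for 6 libraries, 3 per genotype, grouped by the titles in the labels. Each deposited list holds, per peak, a position, a score, a fold ratio over background, p- and q-values (both as −log10) and a summit on mm10 (GRCm38), per the submitters' processing notes. These deposited scores, fold ratios and −log10 p- and q-values come from the authors and served to rank or filter peaks within a list. The lists were deposited per library, and aligner, peak caller, duplicate handling and control library were not given in the sources used here. Read depth is unknown, so no counting interval is given.

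The 30000 strongest peaks per library (by p, then fold, then position) on chromosomes 1 to 19 and X were kept. Peaks that overlap by at least 1 bp the stretch within 1 kb of either end of a RefSeq protein-coding gene gave its end cover, scaled to equal total cover per library. A mean of at least 200 bp was required, log2(scaled cover + 200 bp) was fitted with limma 3.58.1 (R 4.3.3, trended moderation), and p-values were adjusted by Benjamini-Hochberg over 9707 genes. Tables and figures used Python 3.11.15, pandas 2.3.3 and matplotlib 3.10.9. The fit was run on simulated data with known changes. Their noise was the same for every gene and did not model peaks missing from some libraries, so they do not show the power of the test here. Of the genes, 720 whose ends both lie in stretches of at least 10000 bp without any deposited peak were not analysed here, 2 members among them.

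Named with values were the 2 best-ranked members per complex with peaks in all 6 libraries, members whose genotypes did not overlap, tissue-type paralogs and the Sdh genes, and by name those without peaks. The c ring genes count as paralogs. Ndufa13, Ndufb4, Cyc1, Atp5d, Atp5o, Ndufb1, Uqcrc2 and Cox8b's promoter were added after their values were seen, and genes of other lists are those of smallest p in each direction. Members and lists were chosen with earlier results of these data known. Start positions and promoters were known for 76 members. Alternatives were other peak numbers, q of 0.01, other windows, offsets, minimum cover, scaling, fixed windows, averaging of replicates 2 and 2b, a replicate block and leaving out each library.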

Additional observations from a re-analysis of the deposited data

How the results depend on the processing

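The 0 limma calls among members held in all 22 alternatives. Over all genes, fixed windows of 250 bp on either side of each summit gave 168 higher and 8 lower calls, and the other 21 alternatives gave 0. Members with an end peak in all 6 libraries, 14 in the report, numbered 3 with the 5000 strongest peaks (an alternative chosen after seeing the data, 3.96% of all genes). They numbered 8 at a deposited q of 0.01 or less (11.9% of all genes). In the other alternatives they numbered 10 to 21, where the share of all genes was 14.7% to 32.7%. The 21 came with the gene body plus 5 kb either side (32.7% of all genes). With the start only, 10 of 76 members had one (17.5% of all genes). With 1 library left out they numbered 14 to 19 (18.6% to 23.7% of all genes).

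Members with peaks in every Azin2-/- and no wild-type library numbered 1 when the gene body plus 5 kb either side was used and 0 to 3 with 1 library left out, and the opposite kind 0 to 1. Non-overlap upwards, 1 member in the report, was 0 with the 60000 strongest peaks (6.68% of all genes tested), at q of 0.01 (2.87%) and with fixed windows (3.22%). It was 2 with the 5000 strongest (5.02%), with 500 bp windows (6.92%), without scaling (6.44%) and with wild-type replicates 2 and 2b averaged (13.2%). It was 3 with the gene body (6.72%), and 2 to 5 with 1 library left out. Non-overlap downwards, 1 member, was 0 with the 60000 strongest (3.05% of all genes tested), 500 bp windows (3.66%), the gene body (4.93%), no scaling (1.58%) and fixed windows (2.77%). It was 2 with 2 kb windows (4.63%), and 1 to 5 with 1 library left out. Upwards the 5 came without Azin2-/- replicate 2, Azin2-/- replicate 8 or wild-type replicate 2b, and downwards without wild-type replicate 2. Over all genes with 1 library left out, non-overlap was 9.89% to 14.2% upwards and 6.48% to 10.5% downwards (10.4% without wild-type replicate 2).

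The median log2 difference of members, 0.23, was 0.65 with the 15000 strongest peaks, 0.01 with the 60000 strongest, -0.09 at q of 0.01 and -0.11 without wild-type replicate 2, so 1 library turned its sign, and 0.08 to 0.35 without any other single library. With wild-type replicates 2 and 2b averaged it was 0.10 (all genes 0.09), and Atp5h was at 0.65. Without scaling it was 0.32 as the median of all genes tested moved from 0.10 to 0.21. The cause of these shifts, and of the calls with fixed windows, was not tested. Atp5h ranged from 0.10 to 1.76 and Uqcrfs1 from -0.64 to -0.00.

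Replicate numbers 1 and 2 occur in both genotypes, but the labels tie them to no shared animal or day. Deviations from the group means correlated at -0.02 for the libraries numbered 1 and 0.15 for those numbered 2 over 9707 genes. Between libraries of unlike number they ran from -0.13 to 0.13, so 0.15 was the highest. The numbers were not taken as pairs, for want of a tie in the labels, and these correlations cannot settle whether a batch was shared. In the replicate block 2b was counted as 2, and replicate 8 had no partner. With this block the number of calls was 0 and the members' median log2 difference was 0.27. Unknown read depth limits how far a missing peak can be read.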
